A study of Homo sapiens with 12 samples.

Results

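The miRNAs described here are miR-155 and miR-146, which are known from activated B cells and from NF-kB signalling. They were chosen by name: every assay of the array for miR-155, miR-146a or miR-146b, whichever arm of the hairpin it detects. This gave 4 of the 372 miRNA assays, namely hsa-miR-155-5p, hsa-miR-155-3p, hsa-miR-146a-5p and hsa-miR-146b-5p (written below without hsa, for human). Steady-state levels had been measured by quantitative PCR on miScript arrays, which read each miRNA in a well of its own, in 12 samples of the human multiple myeloma line OCI-My5. The study examined argonaute 2 (AGO2, also called EIF2C2), the protein that holds mature miRNAs, in relation to cereblon (CRBN), the cellular target of lenalidomide. All cells carried a lentivirus: My5.LV cells, with a low level of CRBN, carried the vector, and My5.CRBN cells, with a high level, carried CRBN. Each line gave 6 conditions. These were un-treated cells, knockdown of AGO2 with the lentiviral hairpin sh72 (My5.LV.sh72 and My5.CRBN.sh72), lentiviral expression of AGO2 cDNA (My5.LV.AGO2 and My5.CRBN.AGO2), 10 µM lenalidomide for 72 hours (LEN72), AGO2 cDNA with 10 µM lenalidomide for 72 hours (AGO2.LEN72), and 10 µM lenalidomide for 120 hours (LEN120). Cells with sh72 or AGO2 cDNA were collected 3 days after infection. There was 1 array for each condition of each line, both lines derive from a single parental line, and no array of cells with an empty hairpin or cDNA vector was used here. No array was labelled as DMSO, the lenalidomide control of the paper's blots. The paper states selection with 1 µM puromycin after infection with sh72 or AGO2 cDNA virus, and names none for un-treated cells. The arrays measure miRNAs, so the knockdown or expression of AGO2 itself cannot be read from them.

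A miRNA hairpin is cut by Drosha and Dicer into a short duplex, and either strand of it, the 5p or the 3p arm, can be loaded into an argonaute protein and directed to messenger RNAs that match its seed. miR-155 comes from the transcript once called BIC, is switched on when B cells and macrophages are activated, and in most cells its 5p arm is the abundant one. miR-146a is induced by NF-kB and represses TRAF6 and IRAK1, signalling proteins that act upstream of NF-kB. miR-146b, from a gene on another chromosome, has the same seed.

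The mature sequences are shown because the seed decides which of the 4 share targets, and because miR-146a-5p and miR-146b-5p are so alike that their assays could cross-detect, which was not measured. They are RefSeq sequences on GRCh38.p14, in which 330 of the 372 array names and all 4 of these names were found. Capitals mark the seed, bases 2 to 8.
miR-155-5p: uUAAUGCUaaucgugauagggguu
miR-155-3p: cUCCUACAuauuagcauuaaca
miR-146a-5p: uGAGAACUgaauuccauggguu
miR-146b-5p: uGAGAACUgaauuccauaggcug
The miR-155 arms lie at chr21:25573983-25574006 and chr21:25574022-25574043, both on the plus strand and inside MIR155HG, a long non-coding RNA gene. miR-146a-5p lies at chr5:160485372-160485393 on the plus strand, inside the long non-coding RNA gene MIR3142HG. miR-146b-5p lies at chr10:102436520-102436542 on the plus strand, inside no other gene of the annotation used. The arms of miR-155 have different seeds, and no other assay on the array shared either of them. miR-146a-5p and miR-146b-5p share their seed with each other and with no other assay. Counted from the 5′ end, they differ by G18A and U21C, with 20 of 22 positions identical, and miR-146b-5p is 23 bases long.

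The PCR reports the threshold cycle (Ct) at which a well's fluorescence is detected. A lower Ct is a higher level, and a difference of 1 cycle was taken as a doubling. Ct values above 35 were set to 35, and the mean Ct of 6 small-RNA control wells (5 SNORD wells and RNU6) on the same array was subtracted, which gave the normalized Ct. Subtracting a test array's normalized Ct from its control's gave the log2 fold change, which is negative where the test array was lower. The mean Ct of the control wells ranged from 18.7 to 21.9, and from 324 to 367 of the 372 miRNAs were under Ct 35 on an array. Duplicate wells scattered most at high Ct. Their root mean square difference was 0.187 cycles for the reverse transcription control, at Ct 21.6 to 24.9. It was 0.383 cycles for the wells labelled PPC, at Ct 17.3 to 20.5. For the cel-miR-39 wells it was 1.43 cycles, between Ct 31.5 and the cap of 35. The miR-146 assays, at Ct 19.1 to 25.9, lie near the ranges of the reverse transcription control and the PPC wells. Most miR-155 values lie near that of the cel-miR-39 wells.

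The labelled cell type was checked against its markers. miR-142-3p, a miRNA of blood cells, had the highest level of the 372 miRNAs, with Ct 12.4 to 18.6, and the other blood markers miR-150-5p and miR-142-5p ranked at 27 and 43. miR-122-5p of liver ranked at 339, with Ct from 30.7 to the cap. The muscle miRNAs were not near the cap: miR-1 ranked at 41, with Ct 18.7 to 24.2, and miR-133a-3p at 96. miR-200c-3p and miR-141-3p of epithelium ranked at 111 and 137, and miR-124-3p of neurons at 200. Ranks between assays assume that all primers amplify alike, and whether these signals bear on the miR-155 and miR-146 values was not tested.

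By mean normalized Ct over the 12 arrays, the order of level was miR-146a-5p, miR-146b-5p, miR-155-3p and miR-155-5p. miR-146a-5p averaged 0.76 ± 0.50 (SD, n = 12) and ranked at 39 of 372. miR-146b-5p averaged 3.94 ± 0.52 and ranked at 81. Their ranges did not overlap, since the lowest level of miR-146a-5p (1.64) was above the highest of miR-146b-5p (2.94). miR-155-3p averaged 10.66 ± 1.12 and ranked at 271, and miR-155-5p averaged 12.10 ± 1.65 and ranked at 311. The ranges of the miR-155 arms overlapped widely. The order of spread was the opposite: the SD over the 12 arrays ranked at 12 of 372 from the top for miR-155-5p and at 49 for miR-155-3p, but at 321 for miR-146b-5p and 332 for miR-146a-5p. The median SD of all 372 miRNAs was 0.76. Only miR-155-5p reached the cap, on the My5.LV.LEN120 array.

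**Figure D1:**
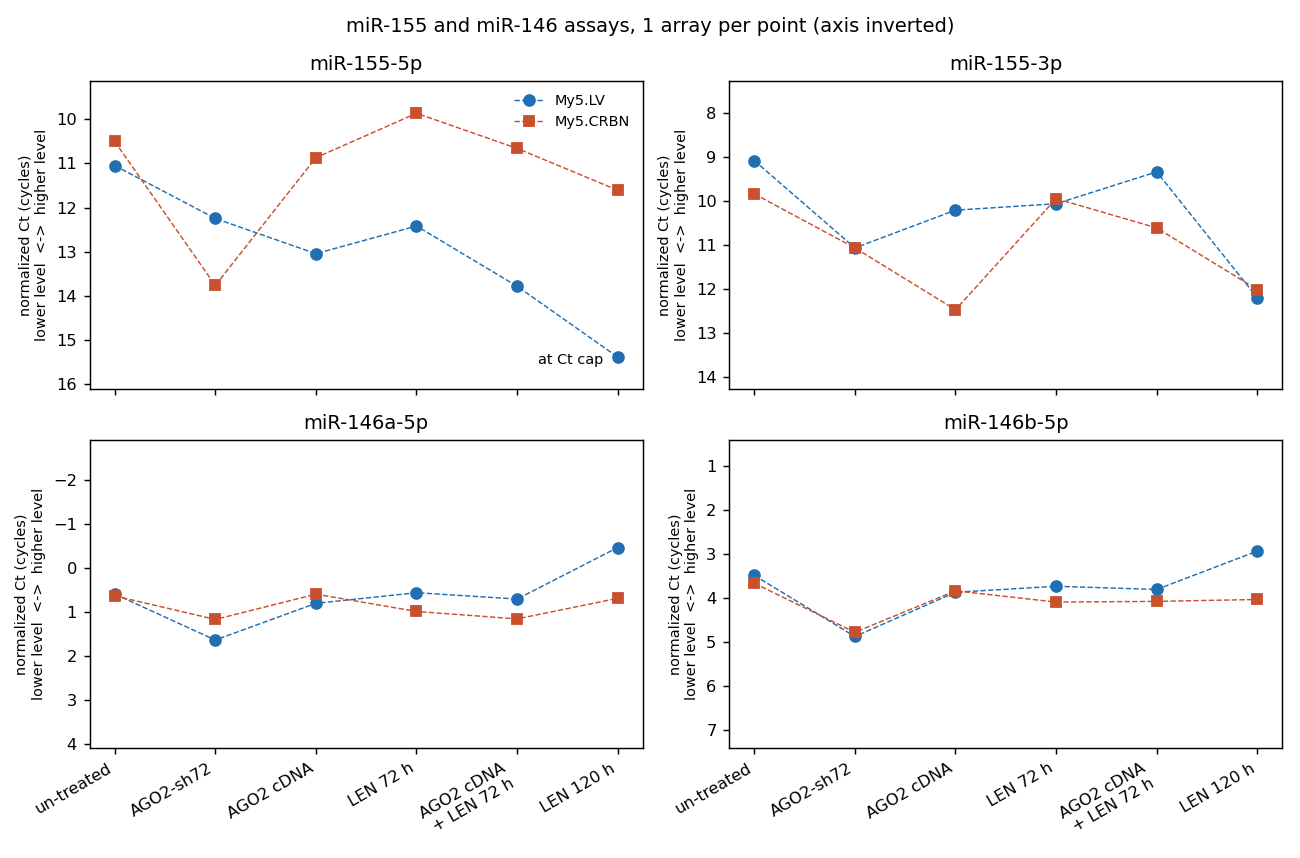
Normalized Ct (cycles, axis inverted so that higher points are higher levels; each panel spans the same number of cycles) of the 4 miRNAs in the 6 conditions, with 1 array per point. Circles are My5.LV, squares are My5.CRBN, and dashed lines only join arrays of a line. The miR-146 panels are nearly flat, while miR-155-5p spreads from 9.86 to the capped 15.40.

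miR-155-5p, the arm that is the main product of the hairpin in activated B cells, was close to the limit of detection. In My5.LV cells its Ct was 31.2 un-treated, 33.2 with sh72, 34.2 with AGO2 cDNA, 32.8 with LEN72, 32.5 with AGO2.LEN72 and 38.3 with LEN120, the last above the cap. In My5.CRBN cells it was 31.3 un-treated, 34.2 with sh72, 32.7 with AGO2 cDNA, 28.9 with LEN72, 31.0 with AGO2.LEN72 and 30.3 with LEN120. The un-treated array was the highest of the 6 My5.LV arrays after normalization, at 11.05, while the highest My5.CRBN array was LEN72, at 9.86, and the lowest was sh72, at 13.77.

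Set against the un-treated array of its line, miR-155-5p was at least 3 fold lower in 4 of the 10 comparisons and at least 3 fold higher in none. In My5.LV.AGO2 it was 4.00 fold lower, where the same was true of 0.806% of all 372 miRNAs. In My5.LV.AGO2.LEN72 its log2 fold change was -2.74 (6.68 fold lower), against 5.11% of all miRNAs. In My5.LV.LEN120 it was at least 20.4 fold lower, a bound because the test array was at the cap, and 14.2% of all miRNAs were at least 3 fold lower there. In My5.CRBN.sh72 it was -3.27 (9.65 fold lower), against 12.9% of all miRNAs. In the treatments where it stayed within 3 fold, the share of all miRNAs at least 3 fold lower was 23.7% for My5.LV.sh72, 0.538% for My5.LV.LEN72, 6.18% for My5.CRBN.AGO2, 1.61% for My5.CRBN.LEN72, 0.806% for My5.CRBN.AGO2.LEN72 and 13.4% for My5.CRBN.LEN120. The remaining log2 fold changes were -1.20 for My5.LV.sh72, -1.37 for My5.LV.LEN72, -0.37 for My5.CRBN.AGO2, 0.64 for My5.CRBN.LEN72, -0.16 for My5.CRBN.AGO2.LEN72 and -1.11 for My5.CRBN.LEN120. As a background for the absence of higher values, 1.88% of all miRNAs were at least 3 fold higher with sh72 in My5.LV, 5.91% with AGO2 cDNA, 0.538% with LEN72, 2.42% with AGO2.LEN72 and 4.3% with LEN120. In My5.CRBN these shares were 1.61%, 2.15%, 9.95%, 4.3% and 5.11%. The 5 comparisons of a line share its un-treated array and are not independent of each other. With a cap of Ct 32 in place of 35 the count fell from 4 to 1, because most values of this assay then lie at the cap, and the log2 fold change in My5.LV.AGO2 turned to 0.19.

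miR-155-3p, the partner arm, had lower Ct than miR-155-5p on 9 of the 12 arrays. In My5.LV cells its Ct was 29.2 un-treated, 32.04 with sh72, 31.4 with AGO2 cDNA, 30.4 with LEN72, 28.1 with AGO2.LEN72 and 31.8 with LEN120. In My5.CRBN cells it was 30.6 un-treated, 31.5 with sh72, 34.3 with AGO2 cDNA, 29.02 with LEN72, 30.9 with AGO2.LEN72 and 30.7 with LEN120. After normalization the un-treated array was the highest of its line in both lines, at 9.09 for My5.LV beside 9.84 for My5.CRBN.

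miR-155-3p was also at least 3 fold lower in 4 of the 10 comparisons with un-treated cells and at least 3 fold higher in none. These were My5.LV.sh72, with a log2 fold change of -1.98 (3.95 fold lower, against 23.7% of all miRNAs), My5.LV.LEN120 with -3.11 (8.66 fold lower), My5.CRBN.AGO2 with -2.63 (6.19 fold lower, against 6.18% of all miRNAs) and My5.CRBN.LEN120 with -2.17 (4.51 fold lower, against 13.4%). My5.LV.LEN120 was the only comparison that the 4 of each arm had in common. The other log2 fold changes of miR-155-3p were all below 0 and ran from -1.23 for My5.CRBN.sh72 to -0.11 for My5.CRBN.LEN72. Of the 372 miRNAs, 6 were at least 3 fold lower in 4 or more of the 10 comparisons, both miR-155 arms among them, and the median count was 0.

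**Figure D2:**
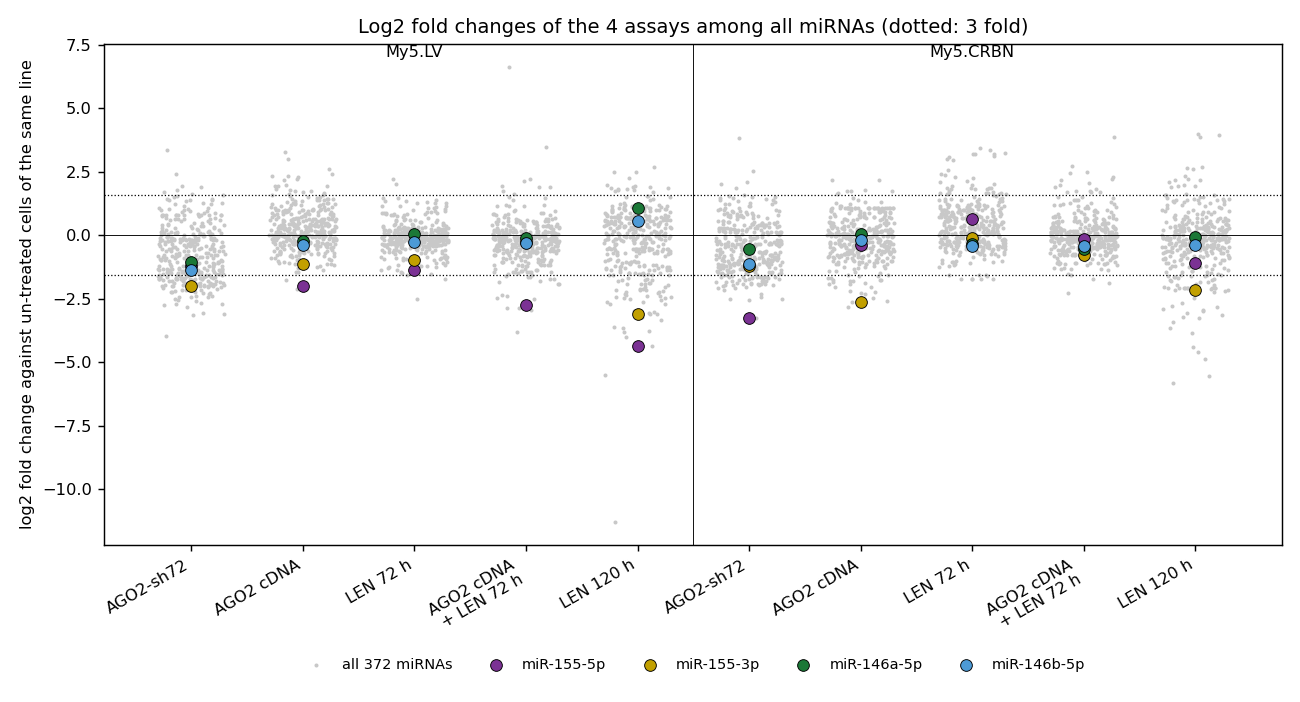
Log2 fold change (vertical axis) from the un-treated array of the same line, in the 5 treatments of My5.LV (left) and of My5.CRBN (right). Grey points are all 372 miRNAs, large points are the 4 miRNAs described, 1 pair of arrays per column, and dotted lines mark 3 fold. The miR-155 arms account for every large point below the lower line, and no large point lies above the upper line.

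The Ct of miR-155-5p minus that of miR-155-3p on the same array needs no control well. In My5.LV cells this difference was 1.96 un-treated, 1.18 with sh72, 2.84 with AGO2 cDNA, 2.35 with LEN72, 4.45 with AGO2.LEN72 and at least 3.20 with LEN120. All 6 were above 0, the 3p assay being detected earlier. In My5.CRBN cells it was 0.66 un-treated, 2.70 with sh72, -1.60 with AGO2 cDNA, -0.09 with LEN72, 0.04 with AGO2.LEN72 and -0.41 with LEN120. The mean was 2.66 ± 1.12 (SD, n = 6) in My5.LV, with the bound at its capped value, and 0.22 ± 1.43 in My5.CRBN. My5.LV was above My5.CRBN in 5 of 6 conditions and below it with sh72, and the mean difference was 2.45 ± 2.29 cycles. An exact two-sided sign-flip permutation test over the 6 pairs gave p = 0.0938, where the smallest p possible is 0.0312, so the difference did not pass the test. Without the LEN120 pair the mean was 2.21 (exact p = 0.1875, n = 5), and without the sh72 pair it was 3.24 (exact p = 0.0625, the smallest that 5 pairs allow). With a cap of Ct 32 it was 1.27 cycles (exact p = 0.0625), smaller by more than 1.5 times.

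Of 86 hairpins with both arms on the array, miR-155 had the SD of the arm difference that ranked at 8 from the top, 1.77 cycles against a median of 0.851. Its difference between the lines ranked at 2 by size, against a median of 0.273 cycles. Weakly detected hairpins scatter more: among the 33 with a mean Ct over 29, the SD of miR-155 ranked at 6, against a median of 1.08. Over the 12 arrays the normalized Ct of the arms were related by r = 0.23 (Pearson) and rho = 0.22 (Spearman), as a description of arrays that share their control wells.

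miR-146a-5p, a brake on NF-kB signalling, was at a high level on every array. In My5.LV cells its Ct was 20.8 un-treated, 22.6 with sh72, 21.9 with AGO2 cDNA, 20.9 with LEN72, 19.4 with AGO2.LEN72 and 19.1 with LEN120. In My5.CRBN cells it was 21.4 un-treated, 21.6 with sh72, 22.5 with AGO2 cDNA, 20.1 with LEN72, 21.5 with AGO2.LEN72 and 19.4 with LEN120. After normalization the sh72 array was the lowest of its line in both lines, at 1.64 and 1.17. The My5.LV.LEN120 array was the highest of the 12, at -0.46, and the other 9 arrays lay between 0.56 and 1.16.

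miR-146b-5p, which has the same seed, was also detected early on every array. In My5.LV its Ct was 23.6 un-treated, 25.9 with sh72, 25.0 with AGO2 cDNA, 24.1 with LEN72, 22.5 with AGO2.LEN72 and 22.5 with LEN120. In My5.CRBN it was 24.5 un-treated, 25.2 with sh72, 25.7 with AGO2 cDNA, 23.2 with LEN72, 24.4 with AGO2.LEN72 and 22.7 with LEN120. After normalization the sh72 arrays were again the lowest of their lines, at 4.88 and 4.78, and My5.LV.LEN120 was the highest of all 12, at 2.94.

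Neither miR-146a-5p nor miR-146b-5p was 3 fold lower or 3 fold higher in any of the 10 comparisons with un-treated cells. This was the usual result: 183 of the 372 miRNAs were at least 3 fold lower in any of them. The median count was 0 in either direction. Their lowest log2 fold changes were with sh72: -1.04 for miR-146a-5p and -1.39 for miR-146b-5p in My5.LV, and -0.54 and -1.11 in My5.CRBN. The median of all 372 miRNAs was itself -0.79 in My5.LV.sh72 and -0.52 in My5.CRBN.sh72. Their highest values were in My5.LV.LEN120, at 1.06 for miR-146a-5p and 0.55 for miR-146b-5p. In My5.CRBN.LEN120 the values were -0.06 and -0.37. The other log2 fold changes against un-treated cells lay between -0.52 and 0.04 for miR-146a-5p and between -0.43 and -0.17 for miR-146b-5p.

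Within an array, the Ct of miR-146b-5p minus that of miR-146a-5p lay between 2.90 and 3.61, with a mean of 3.18 ± 0.21 (SD, n = 12). It was highest in My5.CRBN.sh72 and lowest in un-treated My5.LV cells. Over the 12 arrays the normalized Ct of the pair gave r = 0.92 (Pearson) and rho = 0.92 (Spearman), as a description. With the other normalizers Pearson r lay between 0.906 and 0.968. Spearman rho was 0.68 with the mean of all detected miRNAs as normalizer, and between 0.88 and 0.98 with the others. How far each assay detects the other miRNA was not measured, so these values do not show that the transcripts move independently or together.

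**Figure D3:**
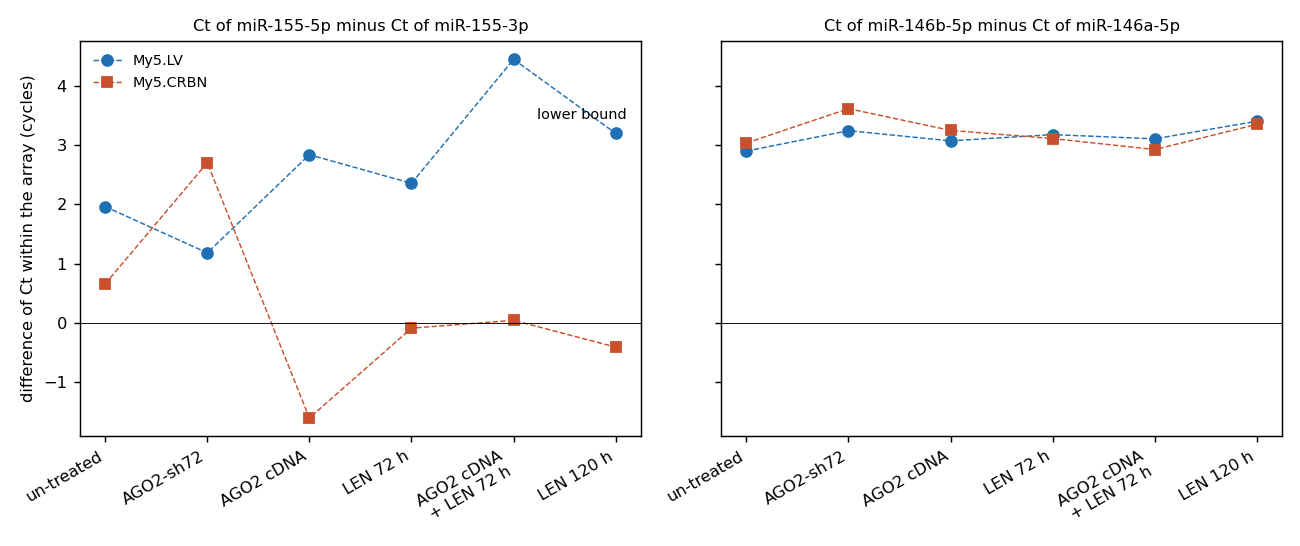
Differences of Ct within an array (cycles) for the arms of miR-155 (left) and for miR-146b-5p and miR-146a-5p (right), on a common axis, in the 6 conditions of My5.LV (circles) and My5.CRBN (squares), 1 array per point. The arm difference spreads from -1.60 to 4.45 and the miR-146 difference only from 2.90 to 3.61.

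The difference between the lines was tested over the 6 conditions, each with an array of both lines, in a limma fit of 362 miRNAs. Condition and line were its terms. A single line carried the vector and a single line carried CRBN, so the 6 conditions do not replicate CRBN level. Any other difference between the lines cannot be told apart from it. Beside an un-treated log2 difference (My5.CRBN minus My5.LV) of 0.55, miR-155-5p differed by -1.52 with sh72, 2.18 with AGO2 cDNA, 2.56 with LEN72, 3.13 with AGO2.LEN72 and at least 3.79 with LEN120. It was higher in My5.CRBN in 5 of 6 conditions, and past 3 fold in 4 of them, namely with AGO2 cDNA and the 3 lenalidomide conditions. For all 372 miRNAs the share at least 3 fold higher in My5.CRBN was 2.15% un-treated, 3.23% with sh72, 1.61% with AGO2 cDNA, 9.41% with LEN72, 6.99% with AGO2.LEN72 and 6.45% with LEN120. The share at least 3 fold lower was 1.88%, 0.806%, 9.14%, 0.538%, 1.88% and 6.45% in that order. The mean difference of miR-155-5p was 1.78 ± 1.95 (SD, n = 6). The fitted SE was 0.57, the 95% interval was 0.56 to 3.00, and it did not pass (limma, Benjamini-Hochberg adjusted p = 0.103). In that test 3.87% of the 362 miRNAs were called higher and 1.93% lower in My5.CRBN. Without the My5.LV.sh72 or the My5.CRBN.sh72 array the difference was 2.44 and passed (adjusted p = 0.0187 and 0.0184). The fit used the capped value of My5.LV.LEN120.

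miR-155-3p had a log2 difference between the lines of -0.76 un-treated, -0.00 with sh72, -2.26 with AGO2 cDNA, 0.12 with LEN72, -1.27 with AGO2.LEN72 and 0.18 with LEN120. It was past 3 fold in My5.CRBN.AGO2 alone, where a cap of Ct 32 turned the value to 0.075. The fitted difference was -0.67 (SE 0.38, 95% interval -1.47 to 0.14, limma adjusted p = 0.437). The fitted difference was -0.23 for miR-146a-5p (95% interval -0.68 to 0.21, limma adjusted p = 0.745) and -0.30 for miR-146b-5p (95% interval -0.71 to 0.12, limma adjusted p = 0.533). Each of the 2 was lower in My5.CRBN in 4 of 6 conditions, by at most 1.15 and 1.10, both with LEN120.

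For each treatment the same fit gave the difference from un-treated cells shared by both lines, with the disagreement between lines and conditions as its error. With AGO2-sh72, miR-146b-5p fell by 1.25 on the log2 scale (SE 0.34, 95% interval -1.97 to -0.53, limma adjusted p = 0.00951), with -1.39 in My5.LV beside -1.11 in My5.CRBN. This is beside a median of -0.63 over all 362 miRNAs, 33.7% of which were called lower and 0.829% higher, and it ranked at 110 from the lowest. With the mean of all detected miRNAs as normalizer its value was -0.55 (limma adjusted p = 0.293). It also lost the call without the My5.LV array (-1.32, adjusted p = 0.0624), the My5.CRBN array (-1.18, adjusted p = 0.0903) or the My5.LV.sh72 array (-1.02, adjusted p = 0.128). The other 3 did not pass with sh72: miR-155-5p had -2.24 (SE 0.99, limma adjusted p = 0.1), miR-155-3p -1.60 (SE 0.65, adjusted p = 0.0733) and miR-146a-5p -0.79 (SE 0.36, adjusted p = 0.111).

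With lenalidomide for 120 hours, miR-155-3p fell by 2.64 on the log2 scale (SE 0.65, 95% interval -4.04 to -1.24, limma adjusted p = 0.0181), with -3.11 in My5.LV beside -2.17 in My5.CRBN. In this test 6.35% of the 362 miRNAs were called lower and 2.21% higher. The call was lost without the My5.LV array (-2.59, adjusted p = 0.144), the My5.CRBN array (-2.70, adjusted p = 0.128) or the My5.LV.LEN120 array (-2.13, adjusted p = 0.163). miR-155-5p had -2.73 (SE 0.99, 95% interval -4.84 to -0.61) and did not pass (limma adjusted p = 0.104), with the capped value in My5.LV.LEN120. The values of miR-146a-5p and miR-146b-5p were 0.50 (limma adjusted p = 0.434) and 0.09 (adjusted p = 0.879). Their My5.LV and My5.CRBN values had opposite signs, 1.06 and -0.06 for miR-146a-5p and 0.55 and -0.37 for miR-146b-5p.

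With AGO2 cDNA none of the 362 miRNAs passed the limma test (0.0% in either direction, 34 with an unadjusted p under 0.05), although without the My5.LV.AGO2 array 9 were called lower. miR-155-3p had the lowest value of the 362, -1.88 (SE 0.65, 95% interval -3.28 to -0.48, limma adjusted p = 0.273), with -1.13 in My5.LV beside -2.63 in My5.CRBN. The My5.CRBN value came from Ct 34.3, near the cap, on the array with the fewest miRNAs under Ct 35 (324 of 372). Without the My5.LV.AGO2 array the value of miR-155-3p was -2.84, which then rested on the My5.CRBN.AGO2 array alone. The values of the other 3 were -1.19 for miR-155-5p, -0.09 for miR-146a-5p and -0.28 for miR-146b-5p. Leaving out 1 array moved miR-155-5p to between -1.93 and -0.45 with AGO2 cDNA, and from -1.45 to between -2.26 and -0.64 with AGO2.LEN72, and it passed in neither. With LEN72 (0.0% called, 17 with an unadjusted p under 0.05) and with AGO2.LEN72 (0.0% called, 25 with an unadjusted p under 0.05) limma called none of the 362 miRNAs in either direction, and the 4 values ran from -0.54 to -0.16 and from -1.45 to -0.32.

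**Figure D4:**
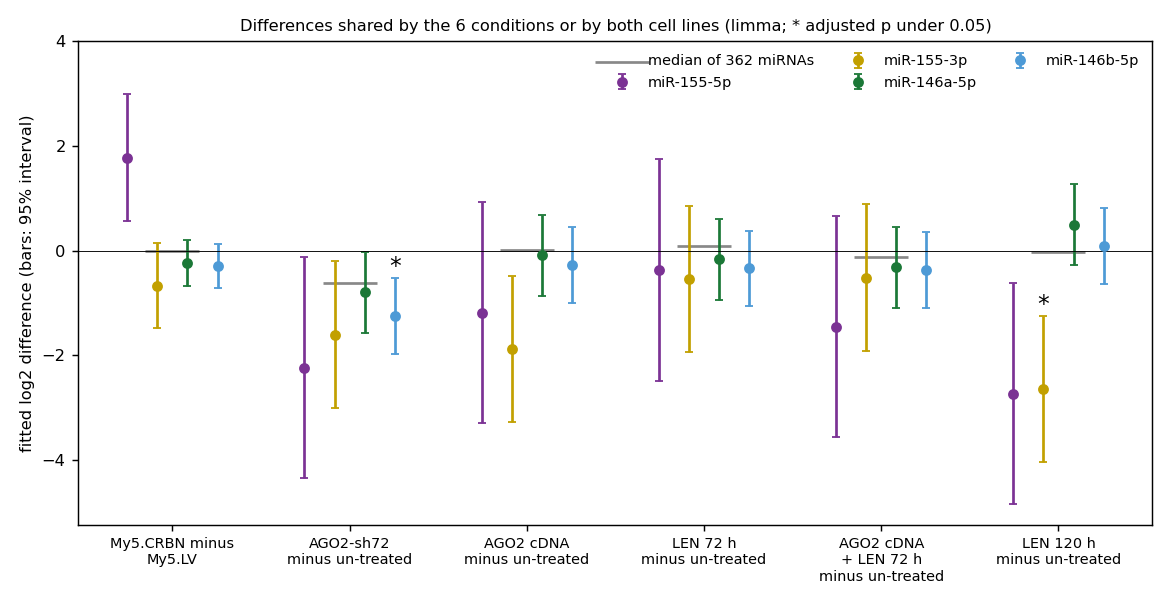
Fitted log2 differences (points) with 95% intervals (bars) from limma for the 4 miRNAs: My5.CRBN minus My5.LV over 6 conditions at the left, then each treatment minus un-treated over both lines. Grey dashes are medians of the 362 miRNAs, and stars mark an adjusted p under 0.05, which only miR-146b-5p with sh72 and miR-155-3p with LEN120 have.

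Arrays of the treatments were also compared with each other within a line. From sh72 to AGO2 cDNA, miR-155-5p had a log2 fold change of 2.90 in My5.CRBN, where 10.2% of all miRNAs were at least 3 fold higher and 3.49% lower. In My5.LV it was -0.80, where 22.3% were higher and 0.269% lower. miR-155-3p went the other way, with -1.40 in My5.CRBN beside 0.86 in My5.LV. miR-146a-5p and miR-146b-5p were above 0 in both lines, 0.83 and 1.00 in My5.LV and 0.58 and 0.94 in My5.CRBN.

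Between 72 and 120 hours of lenalidomide both miR-155 arms were at least 3 fold lower in both lines. miR-155-3p had -2.13 in My5.LV, where 11.8% of all miRNAs were at least 3 fold lower, and -2.07 in My5.CRBN, where 22.0% were. miR-155-5p was at least 7.87 fold lower in My5.LV, a bound, and had a log2 fold change of -1.75 in My5.CRBN. miR-146a-5p had 1.03 and 0.30, and miR-146b-5p 0.80 and 0.06, in My5.LV and My5.CRBN in that order, while 4.3% and 1.61% of all miRNAs were at least 3 fold higher.

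When AGO2 cDNA was added to 72 hours of lenalidomide, no value of the 4 passed 3 fold. In My5.LV 5.91% of all miRNAs were at least 3 fold lower in that comparison, in the other line 6.99% were, and 1.08% were higher in each. miR-155-5p had the lowest values of the 4, -1.37 in My5.LV beside -0.80 in My5.CRBN. When lenalidomide was added to AGO2 cDNA, miR-155-3p had 1.86 in My5.CRBN, where 8.33% of all miRNAs were at least 3 fold higher and 2.42% lower. With a cap of Ct 32 that value turned to -0.48. It had 0.87 in My5.LV, where 0.269% were higher and 11.6% lower. The other 3 stayed within 3 fold in both lines.

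Other miRNAs known to be regulated by NF-kB or to act on it were read from a list of 14: miR-9-5p, miR-10a-5p, miR-15a-5p, miR-16-5p, miR-21-5p, miR-31-5p, miR-125b-5p, miR-132-3p, miR-181b-5p, miR-199a-5p, miR-221-3p, miR-222-3p, miR-223-3p and miR-301a-3p. With sh72, 8 of the 14 passed as lower and none as higher. The median log2 difference of the list was -1.31, beside -0.63 for all 362. Of the 362, 33.7% passed as lower and 0.829% as higher, and they were not matched to the list by Ct. miR-301a-3p, which represses an inhibitor of NF-kB, fell by 3.62 (limma adjusted p = 3.9e-05), and miR-223-3p, a myeloid miRNA, by 2.26. miR-15a-5p fell by 1.97, miR-9-5p by 1.78, miR-10a-5p by 1.65, miR-125b-5p by 1.43, miR-181b-5p by 1.37 and miR-16-5p by 1.08. miR-221-3p had 1.09 and did not pass (limma adjusted p = 0.106). With the mean of all detected miRNAs as normalizer 4 passed as lower (miR-301a-3p, miR-223-3p, miR-15a-5p and miR-9-5p), miR-221-3p passed as higher, and the median was -0.60. In that setting 20 of all 362 passed as lower and 20 as higher, with a median of 0.08. With a cap of Ct 32, 8 of the list passed as lower (median -1.22), where 120 of 303 miRNAs did (median -0.75). Without the My5.LV.sh72 array, which left 1 sh72 array, the median of the list was -1.04, beside -0.58 for all 362. Without the My5.LV array, which left 1 un-treated array, it was -1.08, beside -0.63.

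Between the lines 2 of the 14 passed, both higher in My5.CRBN: miR-223-3p by 2.08 (limma adjusted p = 0.000264) and miR-9-5p by 0.86 (limma adjusted p = 0.0177). Of all 362, 3.87% passed as higher and 1.93% as lower. The median of the list was 0.36, beside -0.01 for all. miR-9-5p lost its call when either array of the un-treated, LEN72 or AGO2.LEN72 pair was left out, and neither passed without condition as a term. With LEN120, 1 passed as lower, miR-31-5p at -2.35 (limma adjusted p = 0.00437), and 1 as higher, miR-223-3p at 1.88 (limma adjusted p = 0.0213), while 6.35% of all 362 passed as lower and 2.21% as higher. The median of the list was 0.46, beside -0.03 for all. miR-10a-5p had 1.89 and did not pass (limma adjusted p = 0.0592), but it passed with the mean of all miRNAs, RNU6 alone or the reverse transcription control wells as normalizer, with a cap of Ct 32, and when either AGO2 cDNA array was left out (adjusted p from 0.00602 to 0.043). Neither miR-31-5p nor miR-223-3p passed without the My5.LV or the My5.CRBN array, and miR-223-3p did not pass when either LEN120 array was left out. None of the 14 passed with AGO2 cDNA, LEN72 or AGO2.LEN72, and the medians were 0.00, 0.39 and 0.15, beside 0.01, 0.09 and -0.12. With AGO2 cDNA, miR-221-3p passed as higher with 2 other normalizers (the mean of all miRNAs and the reverse transcription control wells) and with a cap of Ct 32. With RNU6 alone 2 of the list, miR-125b-5p and miR-9-5p, passed as lower with AGO2.LEN72. In that setting 106 of all 362 passed as lower, and the median was -0.77 for the list beside -1.05 for all.

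By Pearson r of normalized Ct over the 12 arrays, among miRNAs under Ct 35 on all of them, the miRNAs most like miR-155-5p were miR-331-5p (0.71), miR-324-3p (0.70) and miR-375 (0.66). Those most like miR-155-3p were miR-212-3p (0.89), miR-431-5p (0.86) and miR-370-3p (0.85). For miR-146a-5p they were miR-18a-5p (0.94), miR-182-5p (0.93) and miR-23b-3p (0.93), and for miR-146b-5p miR-18a-5p (0.97), miR-17-5p (0.96) and miR-23b-3p (0.96). With the mean of all detected miRNAs as normalizer, miR-146b-5p (0.91) came first for miR-146a-5p. All of these values share the arrays' control wells and RNA samples.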

How the data were processed

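The deposited table holds Ct values (threshold cycles) as the authors' instrument gave them, with no normalization, for 12 arrays (1 per condition and line). Labels name no plate, run or separate culture. The authors' deposited table of fold ratios to un-treated My5.LV cells was not used. Here, Ct above 35 (33 miRNA wells were undetermined) was set to 35, and the mean of 6 control wells was subtracted. Comparisons of 2 arrays have no replicate and no p; 3 fold is a description. limma 3.58.1 (R 4.3.3; line and condition as terms, eBayes with trend, 5 residual degrees of freedom, Benjamini-Hochberg over 362 miRNAs under Ct 35 on at least 6 arrays) gave the tests. Its p-values measure the scatter of lines between conditions. On simulated data for the line difference it called 104 of 107 miRNAs at log2 2, 70 of 93 at log2 1 and 5 of 162 unchanged (362 in all). The simulation gave a difference to more miRNAs than passed in the data, drew noise for each miRNA separately and applied no cap. Its rates therefore do not carry over to weakly detected miRNAs such as miR-155-5p. Python 3.11.15 and SciPy 1.17.1 were used. The members, the list of 14 and the 3 most correlated miRNAs for each member were named by rule, chosen with earlier results of these data known. Alternatives were other normalizers, a cap of Ct 32, no filter, no trend, no condition term and leaving out each array. The pairs left out of the arm test were chosen after seeing the data. Each miRNA had 1 well per array.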

Additional observations from a re-analysis of the deposited data

Results flagged for a closer look

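In 12 cases the log2 fold change of a miRNA described here had opposite signs in the 2 lines under the same contrast. In 3 of these cases, all of miR-155, the lines were 3 fold or more apart. The same counts over all 372 miRNAs are not given here, so these cases cannot be called particular to the miRNAs described. With lenalidomide for 72 hours miR-155-5p had -1.37 in My5.LV beside 0.64 in My5.CRBN, a difference of 2.01. From AGO2-sh72 to AGO2 cDNA, miR-155-5p had -0.80 in My5.LV beside 2.90 in My5.CRBN, a difference of 3.70. In the same contrast miR-155-3p had 0.86 in My5.LV beside -1.40 in My5.CRBN, a difference of -2.26.

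The other 9 were less than 3 fold apart. As My5.CRBN minus My5.LV, miR-146a-5p differed by 0.25 with AGO2 cDNA, by -0.38 with lenalidomide for 72 hours and by -1.11 for 120 hours, and miR-146b-5p by -0.92 for 120 hours. When AGO2 cDNA was added to lenalidomide, miR-155-3p differed by -1.39 and miR-146b-5p by 0.088. When lenalidomide was added to AGO2 cDNA, miR-155-5p differed by 0.95, miR-146a-5p by -0.66 and miR-146b-5p by -0.30. With 1 array per condition and line, none of these differences was tested.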

How the results depend on the processing

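No paired analysis by replicate was possible because each condition had 1 array per cell line; the line comparison has condition as its block, and without that block limma called 1 miRNA lower and 0 higher (7 and 14 with it). RNU6 alone as normalizer moved the median of all miRNAs with sh72 from -0.63 to -1.34, and the median with AGO2.LEN72 was then -1.05. Of the 362 miRNAs, 182 were then called lower and 1 higher with sh72, and 106 and 1 with AGO2.LEN72. With LEN120 these counts were 27 and 7, and between the lines 7 and 18. Beside these, calls appeared for miR-155-5p between the lines (1.84), with sh72 (-2.95), with AGO2.LEN72 (-2.37) and with LEN120 (-2.68). They also appeared for miR-155-3p with sh72 (-2.32), for miR-146a-5p with sh72 (-1.51) and AGO2.LEN72 (-1.24) and for miR-146b-5p with AGO2.LEN72 (-1.29). With RNU6 alone miR-146a-5p and miR-146b-5p were each at least 3 fold lower in 1 comparison. With the reverse transcription control wells miR-155-3p (-1.83) and miR-146a-5p (-1.02) passed with sh72. In that setting 148 of the 362 miRNAs were called lower with sh72 and 3 higher, and the median was -0.85. With the mean of all miRNAs, which put the sh72 median at 0.08, miR-146b-5p with sh72 was -0.55 and no longer passed, and 20 miRNAs were called lower and 20 higher (122 and 3 with the control wells). With the SNORD wells alone miR-146a-5p with AGO2 cDNA turned to 0.0009. A cap of Ct 32 gave no fitted value for miR-155-5p and left 1 comparison for it. The same cap gave -1.58 for miR-155-3p with sh72, which passed, where 120 of 303 miRNAs were called lower and 3 higher. It turned miR-155-5p in My5.LV.AGO2 to 0.19, miR-155-3p from My5.CRBN.AGO2 to My5.CRBN.AGO2.LEN72 to -0.48 and miR-155-3p in My5.CRBN.AGO2 against My5.LV.AGO2 to 0.075.

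Leaving out each array in turn gave 1.38 to 2.44 for miR-155-5p between the lines. With sh72 it gave -4.22 to -0.25 for miR-155-5p, where -4.22 was without My5.LV.sh72 and rested on the My5.CRBN.sh72 array alone. For miR-155-3p it gave -2.003 to -1.21 (passing without My5.LV.AGO2, limma adjusted p = 0.0259, or My5.CRBN.AGO2, 0.0247). For miR-146a-5p it gave -1.21 to -0.37 (passing without My5.LV.LEN120, limma adjusted p = 0.0457, or My5.CRBN.LEN120, 0.0455). For miR-146b-5p it gave -1.49 to -1.02. With AGO2 cDNA it gave -2.84 to -0.92 for miR-155-3p and -0.35 to 0.18 for miR-146a-5p. With LEN72 it gave -1.11 to 0.37 for miR-155-5p. With LEN120 it gave -3.93 to -1.52 for miR-155-5p (passing when either sh72 array was left out), -3.15 to -2.13 for miR-155-3p, -0.052 to 1.05 for miR-146a-5p and -0.39 to 0.57 for miR-146b-5p. The cause of these changes was not tested.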
